A study of Mus musculus with 64 samples.

Results

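The genes described here make cyclic GMP or carry its signal onward in the brain: the neuronal nitric oxide synthase Nos1, the soluble guanylate cyclase subunits Gucy1a1, Gucy1a2 and Gucy1b1, the natriuretic peptide receptors Npr1, Npr2 and Npr3, and the cyclic GMP-dependent protein kinases Prkg1 and Prkg2. They were chosen by name, together with every probe set annotated to them, which gave 9 of 18201 named genes and 21 of 45101 probe sets on the Affymetrix mouse 430 2.0 array. Nos1 had 4 probe sets, Gucy1a1, Npr3 and Prkg2 had 3 each, Gucy1a2, Gucy1b1 and Prkg1 had 2 each, and Npr1 and Npr2 had 1 each. In what follows a gene is represented by its brightest probe set over all 64 arrays unless another probe set is named, and its level is the log2 of the deposited intensity. Levels of different probe sets are not set against each other, because probes differ in how strongly they hybridise.

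Transgenic mice of the line Tg2576, which over-express human mutant amyloid precursor protein, and their wild-type littermates were studied on a B6SJLF1 background at 4 months of age. In each genotype, mice received PF-04447943, which blocks the phosphodiesterase PDE9A and so the breakdown of cyclic GMP, or vehicle from a minipump under the skin for 28 days. Hippocampus and prefrontal cortex were microdissected, snap-frozen and profiled, with 8 mice in each of the 8 groups: Tg2576 with PF-04447943, Tg2576 with vehicle, wild type with PF-04447943 and wild type with vehicle, in each region. All groups therefore share the strain, the age and the implanted pump. In Tg2576 mice the transgene is driven by a hamster prion protein promoter, which is active in many neurons of the forebrain rather than in a single cell type.

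Nitric oxide made by Nos1 in neurons diffuses to nearby cells and binds the haem of soluble guanylate cyclase, a dimer of an alpha subunit (Gucy1a1 or Gucy1a2) and the beta subunit Gucy1b1. Natriuretic peptides act on membrane receptors that are themselves guanylate cyclases, Npr1 and Npr2, while Npr3 lacks the cyclase domain and clears the peptides. Cyclic GMP from either source activates the kinases Prkg1 and Prkg2, both linked to synaptic plasticity, and is broken down by phosphodiesterases, among them the drug's target.

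RefSeq promoter windows on the build GRCm38.p6 were at hand for 8 of the 9 genes, Prkg2 being the exception. The windows of the soluble guanylate cyclase subunits and of Nos1 are shown because the clearest results below concern the opposite regional levels of these genes. Each line is the 250 bases before an annotated start, written 5′ to 3′ on the gene's own strand. Any GC box (GGGCGG or its reverse complement) is in capitals. The Gucy1a1 window lies before a start inside the annotated gene, whose outer end is at 82145946. Gucy1a1 and Gucy1b1 lie on the same strand of chromosome 3.
Gucy1a1, chr3:82145651-82145900, minus strand: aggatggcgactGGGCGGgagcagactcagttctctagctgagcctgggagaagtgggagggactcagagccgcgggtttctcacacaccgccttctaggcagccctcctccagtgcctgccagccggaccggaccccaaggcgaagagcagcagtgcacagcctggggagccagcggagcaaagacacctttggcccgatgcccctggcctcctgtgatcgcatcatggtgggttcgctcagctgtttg
Gucy1b1, chr3:82074712-82074961, minus strand: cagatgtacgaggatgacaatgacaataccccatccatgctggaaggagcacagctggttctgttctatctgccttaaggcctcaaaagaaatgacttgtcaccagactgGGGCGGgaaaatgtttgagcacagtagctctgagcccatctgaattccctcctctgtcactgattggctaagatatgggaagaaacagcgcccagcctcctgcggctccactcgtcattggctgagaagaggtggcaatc
Gucy1a2, chr9:3532099-3532348, plus strand: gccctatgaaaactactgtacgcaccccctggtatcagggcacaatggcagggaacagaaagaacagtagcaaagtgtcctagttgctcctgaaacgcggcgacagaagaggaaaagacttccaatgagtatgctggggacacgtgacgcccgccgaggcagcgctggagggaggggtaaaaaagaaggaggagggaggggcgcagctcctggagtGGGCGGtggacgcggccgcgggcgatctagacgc
Nos1, chr5:117866589-117866838, plus strand: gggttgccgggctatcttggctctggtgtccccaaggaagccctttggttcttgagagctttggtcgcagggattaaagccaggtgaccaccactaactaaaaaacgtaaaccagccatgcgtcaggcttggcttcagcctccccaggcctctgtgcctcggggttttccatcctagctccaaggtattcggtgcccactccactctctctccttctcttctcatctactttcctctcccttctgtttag

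The Gucy1a1 window had 64% G or C and 12 CpG dinucleotides, that of Gucy1b1 51.2% and 5, that of Gucy1a2 59.6% and 17, and that of Nos1 54.0% and 6. The median over 32851 windows of the same length was 52.4% with 6 CpG dinucleotides. Each of the 3 cyclase subunit windows held 1 GC box and the Nos1 window held 0, while 32.7% of all windows held at least 1. A second annotated start of Gucy1a1 (chr3:82145074-82145323, minus strand) had 61.2% G or C and no GC box. On both strands the CCAAT box (CCAAT) was found 2 times upstream of Gucy1b1 and 1 time upstream of Gucy1a2, and in 33.8% of all windows. TATAAA was absent from the 5 windows examined here and present in 12.4% of all windows. The core of the cyclic AMP response element (TGACG) occurred 1 time each upstream of Gucy1b1, Gucy1a2 and Nos1, and in 17.8% of all windows. These matches describe the letters of the windows only.

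The median deposited intensity per array lay between 90.9 and 100.7, and within a region the lowest correlation of any array with another was 0.974 in hippocampus and 0.976 in prefrontal cortex. Marker genes were checked against the labelled regions: 6 of 6 tested pyramidal cell markers of hippocampus, such as Fibcd1 and Spink8, were higher in hippocampus, and 6 of 8 cortical layer markers, such as Lamp5 and Cux2, were lower there. The pyramidal marker mean ranged from 8.68 to 10.55 in hippocampus, against 7.90 to 8.46 in prefrontal cortex. The cortical layer marker mean ranged from 7.47 to 9.0 in hippocampus, against 8.71 to 9.81 in prefrontal cortex, and the ranges overlapped. Hippocampal Tg2576 PF-04447943 replicate 1 stood apart: it had the lowest pyramidal mean (8.68) and the highest cortical layer mean (9.0) of the 32 hippocampal arrays, and the regional and drug differences that it moved most are also given without it. RMA gives no value of 0, so no marker could be called absent. The striatal marker mean ranged from 7.80 to 8.78 in hippocampus, against 7.96 to 11.03 in prefrontal cortex. In these bulk tissues, fewer cells of a type and less RNA per cell cannot be told apart.

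Hippocampus and prefrontal cortex differed in most of these genes. Averaged over the 4 genotype and treatment groups, Gucy1a1, Gucy1a2, Gucy1b1 and Prkg2 were lower in hippocampus than in prefrontal cortex, and Nos1, Npr2, Npr3 and Prkg1 were higher. The widest differences belonged to Gucy1a1, at 0.300 times its prefrontal intensity, and Prkg2, at 0.366 times. Nos1 was 1.91 times as high. Of 21 probe sets, 15 reached the filter level of log2 5.93, the 40th percentile of mean intensity, and all 15 passed an adjusted p of 0.05 in limma, 7 higher and 8 lower in hippocampus. The background was wide as well: 68.3% of the 27022 probe sets tested passed, 31.4% higher and 36.9% lower. The members' differences had a median size of 0.82 on the log2 scale, against 0.16 for all probe sets tested. Prkg2 probe set 1435162_at passed the filter through its prefrontal level, since its hippocampal mean of 5.73 lay under it.

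Nos1, the neuronal nitric oxide synthase, ranged from 9.16 to 10.46 with a median of 9.62 on the 32 hippocampal arrays, against 8.25 to 9.58 with a median of 8.74 on the 32 prefrontal arrays. The ranges overlapped, although 21 hippocampal arrays lay above every prefrontal one. The log2 difference was 0.93 ± 0.07 (SE, 32 arrays each; limma adjusted p = 4.81e-19). The other tested Nos1 probe sets gave 1.03 and 0.78, and the faint probe set 1458626_at, below the filter, gave -0.04 with a 95% interval of -0.12 to 0.04. Without hippocampal Tg2576 PF-04447943 replicate 1, which had the highest Nos1 level, the difference was 0.91.

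Gucy1a1, the alpha-1 subunit of soluble guanylate cyclase, ranged from 8.51 to 9.93 with a median of 9.18 in hippocampus, against 10.45 to 11.55 with a median of 10.89 in prefrontal cortex. No hippocampal array reached the lowest prefrontal one. The log2 difference was -1.74 ± 0.07 (limma adjusted p = 4.25e-31), or -1.76 without hippocampal Tg2576 PF-04447943 replicate 1, and the other probe sets of the gene gave -1.69 and -1.43.
Gucy1b1, the beta-1 subunit shared by both dimers, ranged from 10.86 to 11.68 with a median of 11.35 in hippocampus, against 11.83 to 12.21 with a median of 12.01 in prefrontal cortex. Again the regions did not overlap. Its log2 difference was -0.69 ± 0.03 (limma adjusted p = 5.19e-29), and -0.64 for its second probe set.
Gucy1a2, the alpha-2 subunit, ranged from 9.06 to 9.96 with a median of 9.63 in hippocampus, against 9.61 to 10.39 with a median of 10.09 in prefrontal cortex. Its ranges overlapped, with 14 hippocampal arrays below every prefrontal one, and the log2 difference was -0.48 ± 0.05 (limma adjusted p = 1.95e-13). The faint Gucy1a2 probe set 1459336_at, below the filter, averaged 3.60 in hippocampus and 3.70 in prefrontal cortex. The 3 probe sets of Gucy1a1 and the 2 of Gucy1b1 were the 5 of 15 tested members with no overlap between regions, a separation seen in 1.58% of all probe sets tested.

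Npr3, the clearance receptor, ranged from 7.14 to 8.75 with a median of 8.07 in hippocampus, against 6.48 to 8.20 with a median of 7.53 in prefrontal cortex. The ranges overlapped widely, and the log2 difference was 0.60 ± 0.10 (limma adjusted p = 7.12e-07), with 0.82 for its second tested probe set. Without hippocampal Tg2576 PF-04447943 replicate 1, which had the lowest hippocampal Npr3 level, it was 0.63. The regions lay closer for the third Npr3 probe set, 1450286_at, below the filter, which averaged 5.67 in hippocampus and 5.53 in prefrontal cortex.
Npr2, the receptor for C-type natriuretic peptide, ranged from 8.45 to 9.22 with a median of 8.99 in hippocampus, against 8.65 to 9.09 with a median of 8.84 in prefrontal cortex. Its log2 difference of 0.10 ± 0.04 passed narrowly (limma adjusted p = 0.0374). It was 0.07 with an adjusted p of 0.0931 when each array was centred on its median, and 13 of the 64 fits that left out 1 array gave an adjusted p between 0.0501 and 0.0594.
Npr1, the receptor for atrial and brain natriuretic peptides, lay below the filter on its only probe set, at 3.84 to 5.03 with a median of 4.40 in hippocampus, against 3.88 to 4.53 with a median of 4.24 in prefrontal cortex. The ranges overlapped. In a fit of all 45037 probe sets without the filter, where 55.5% passed, 19 of 21 member probe sets passed, and Npr1 differed by 0.17 ± 0.05 (limma adjusted p = 0.00265).

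Prkg1, the cytosolic cyclic GMP kinase, ranged from 7.91 to 8.65 with a median of 8.45 in hippocampus, against 7.77 to 8.45 with a median of 8.13 in prefrontal cortex. Its ranges overlapped, with 14 hippocampal arrays above every prefrontal one, and the log2 difference was 0.29 ± 0.04 (limma adjusted p = 1.15e-08). The second Prkg1 probe set, 1449876_at, lay below the filter over both regions. It averaged 5.96 in hippocampus and 5.85 in prefrontal cortex, with 0 hippocampal arrays above every prefrontal one. In Tg2576 mice given vehicle its order was reversed, at 5.93 in hippocampus and 6.01 in prefrontal cortex.
Prkg2, the membrane-anchored kinase, ranged from 5.78 to 8.20 with a median of 6.63 in hippocampus, against 7.73 to 8.53 with a median of 8.20 in prefrontal cortex. In hippocampus 30 of 32 arrays lay below every prefrontal one. The log2 difference was -1.45 ± 0.11 (limma adjusted p = 7.41e-18), and it was -2.12 for 1435162_at and -0.98 for 1421354_at, which lay below the filter. Without hippocampal Tg2576 PF-04447943 replicate 1, which carried the highest hippocampal Prkg2 level, the difference was -1.50.

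**Figure D1:**
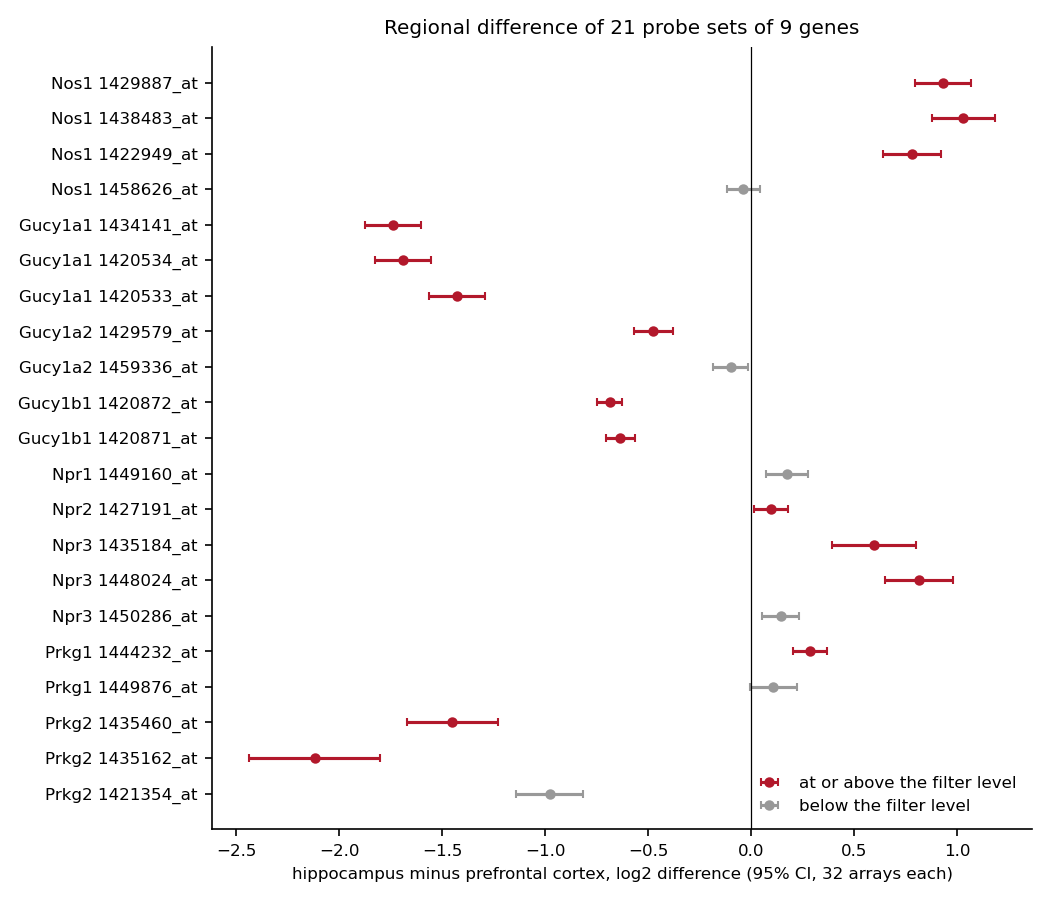
Log2 difference between hippocampus and prefrontal cortex (x axis, 32 arrays each, averaged over the 4 genotype and treatment groups) for the 21 probe sets of the 9 genes (rows); points are limma estimates and bars 95% confidence intervals, red for probe sets at or above the filter level and grey for those below it. The 3 Gucy1a1 probe sets and the 3 Prkg2 probe sets lie left of 0 by 0.98 or more, and the 3 brighter Nos1 probe sets lie right of 0 by 0.78 or more.

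The direction of the regional differences was the same in each genotype and treatment group, but not every member passed in each. The 8 probe sets lower in hippocampus passed in every group. Of the 7 higher ones, 5 passed in each Tg2576 group and 6 in each wild-type group. In Tg2576 mice given vehicle, hippocampal and prefrontal means lay close for Prkg1 (8.34 and 8.19) and Npr2 (8.92 and 8.89). In Tg2576 mice given PF-04447943, 13 of 15 member probe sets passed, against a background of 37.8%. In Tg2576 mice given vehicle, 13 of 15 passed (background 49.6%), in wild-type mice given PF-04447943, 14 of 15 (38.6%), and in wild-type mice given vehicle, 14 of 15 (40.5%). In wild-type mice given vehicle the log2 differences were 0.89 ± 0.13 for Nos1, -1.75 ± 0.14 for Gucy1a1, -0.67 ± 0.06 for Gucy1b1 and -1.42 ± 0.22 for Prkg2 (SE, n = 8 mice each). Npr2 was the 1 tested member that did not pass there, at 0.11 ± 0.08 with a limma adjusted p of 0.320.

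Ordered by group mean, the 4 prefrontal groups ranked above the 4 hippocampal groups for Gucy1a1, Gucy1a2, Gucy1b1 and Prkg2, and the 4 hippocampal groups ranked above the prefrontal ones for Nos1, Npr3 and Prkg1. At the step between regions the gap exceeded the larger SD of the neighbouring groups for Nos1 (gap 0.75), Gucy1a1 (1.55), Gucy1a2 (0.33), Gucy1b1 (0.56) and Prkg2 (1.26). It did not for Npr3 (gap 0.29) or Prkg1 (0.15). Within a region, neighbouring groups lay closer together than their spread for every gene, except that Gucy1b1 in prefrontal cortex averaged 12.10 ± 0.07 in Tg2576 mice given PF-04447943, 0.11 above the next group. For Npr1 and Npr2 the groups of both regions were interleaved, and no neighbours in the order differed beyond their spread.

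**Figure D2:**
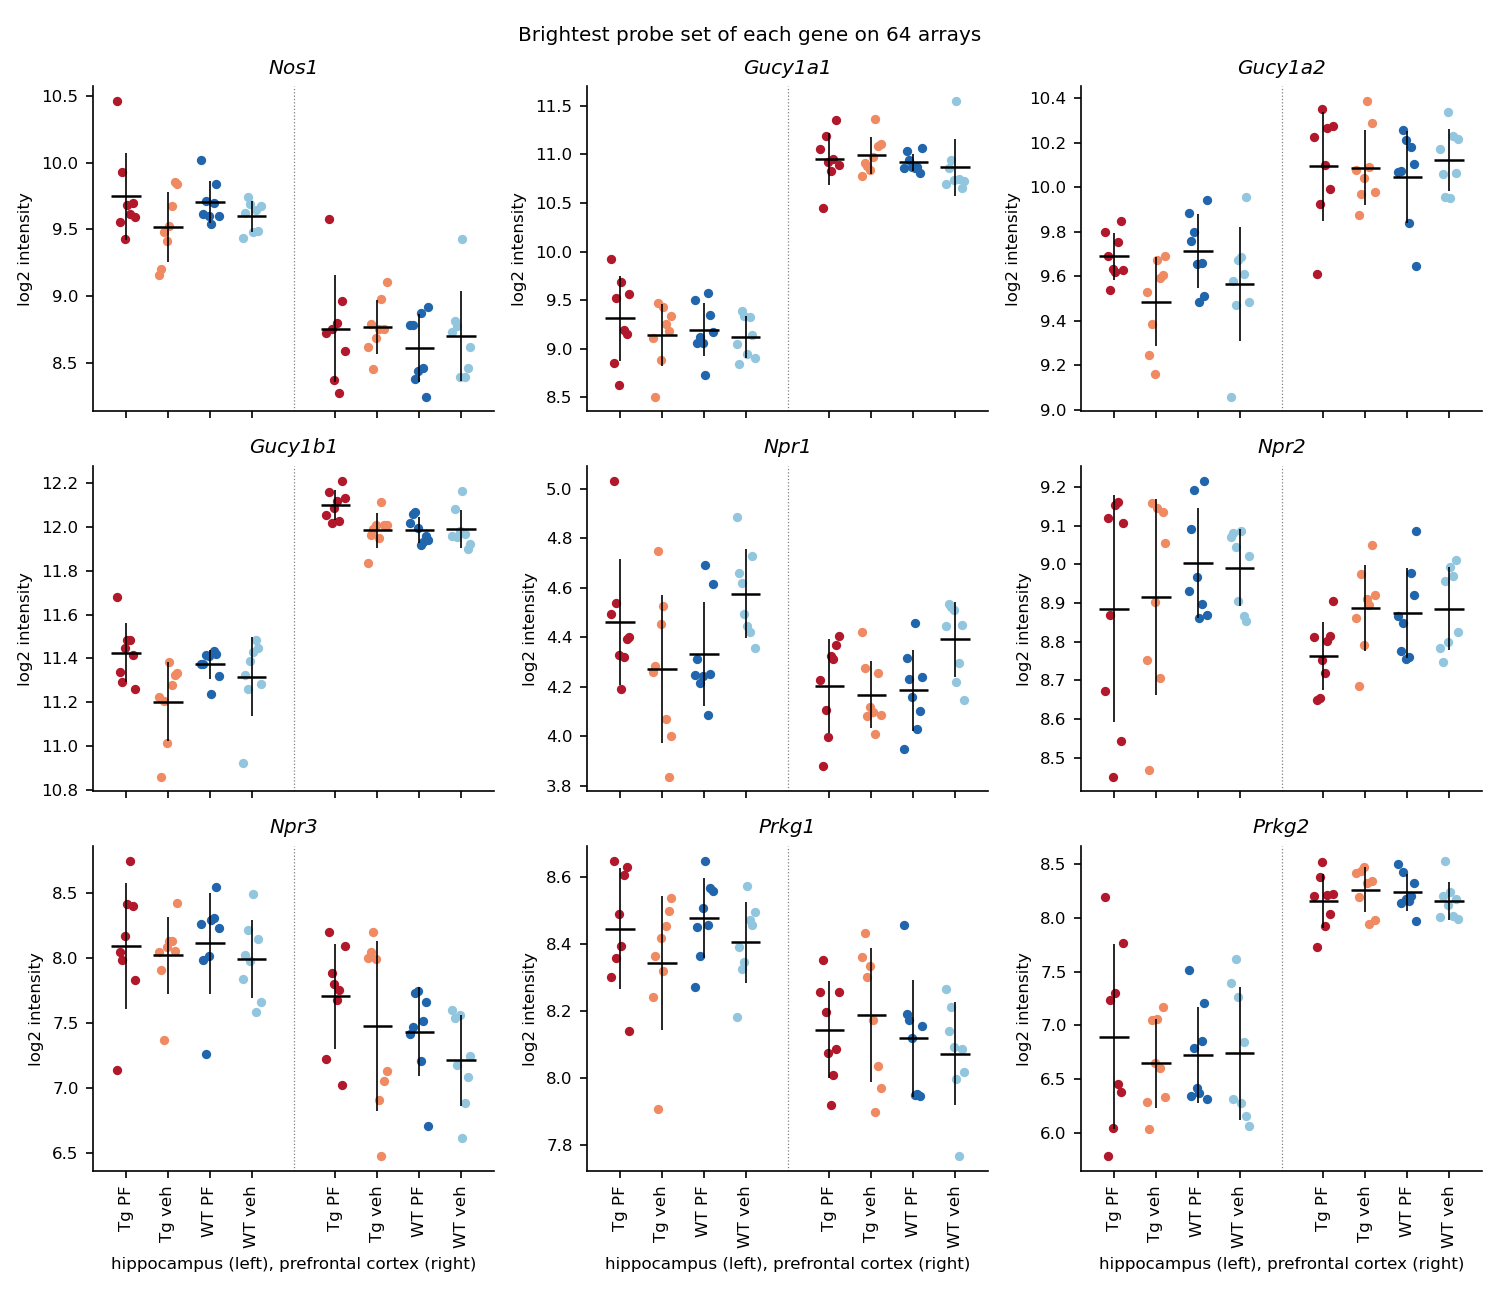
Log2 intensity of the brightest probe set of each gene (y axis) on 64 arrays in 8 groups (x axis), hippocampus left and prefrontal cortex right of the dotted line; Tg is Tg2576, WT wild type, PF PF-04447943 and veh vehicle. Points are mice (8 per group), horizontal bars group means and vertical bars 1 SD. Gucy1a1 and Gucy1b1 separate the regions on every array, Prkg2 spreads over 5.78 to 8.20 in hippocampus, and groups within a region overlap for all 9 genes.

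The inhibitor raises the question whether blocking cyclic GMP breakdown was accompanied by changes in the transcripts that make or read cyclic GMP. In the fits of hippocampus alone, the 15 tested members included Prkg1 1449876_at in place of Prkg2 1435162_at, whose hippocampal mean of 5.73 lay below the filter. Of all probe sets tested there, 2.18% passed when PF-04447943 was set against vehicle over both genotypes (limma, adjusted p of 0.05). None of the 15 members did. At an unadjusted p under 0.05 there were 3, which were Nos1, Gucy1a2 and Gucy1b1, against 20.9% of all probe sets tested. The median of the 15 differences was 0.11, against 0.03 for all probe sets tested, and several of the 15 belong to the same gene. With each array's signal range as a covariate, the differences of Gucy1a1 (-0.041) and Npr3 (-0.10) lay below 0.

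Gucy1b1 in hippocampus ranged from 11.26 to 11.68 with a median of 11.43 in Tg2576 mice given PF-04447943, against 10.86 to 11.39 with a median of 11.25 in Tg2576 mice given vehicle. In wild-type mice it ranged from 11.24 to 11.43 with a median of 11.39 with PF-04447943, against 10.92 to 11.48 with a median of 11.36 with vehicle. The treated and vehicle arrays overlapped in both genotypes. The log2 difference was 0.22 ± 0.07 in Tg2576 mice (unadjusted p = 0.00496, limma adjusted p = 0.342) and 0.06 ± 0.07 in wild-type mice, and the difference of these effects was 0.17 ± 0.10 (limma adjusted p = 0.983). The second Gucy1b1 probe set, 1420871_at, did not show it: it averaged 10.67 ± 0.17 in Tg2576 mice given PF-04447943 and 10.67 ± 0.11 in those given vehicle (SD, n = 8 each), with a 95% interval of the difference from -0.14 to 0.14.
Gucy1a2 in hippocampus ranged from 9.54 to 9.85 with a median of 9.66 in Tg2576 mice given PF-04447943, against 9.16 to 9.69 with a median of 9.56 with vehicle. In wild-type mice it ranged from 9.48 to 9.94 with a median of 9.71 with PF-04447943, against 9.06 to 9.96 with a median of 9.60 with vehicle. These arrays overlapped too, and over both genotypes the log2 difference was 0.18 ± 0.07 (limma adjusted p = 0.125).
Nos1 in hippocampus averaged 9.75 ± 0.32 in Tg2576 mice given PF-04447943 and 9.52 ± 0.26 with vehicle, and 9.70 ± 0.16 in wild-type mice given PF-04447943 and 9.60 ± 0.11 with vehicle (SD, n = 8 each). Over both genotypes the difference was 0.17 ± 0.08 (limma adjusted p = 0.224), and 0.12 without replicate 1 of the treated Tg2576 group.

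Among the brightest probe sets of the member genes in hippocampus, the vehicle group of Tg2576 mice was split by replicate number for these 3. Numbers 1 to 4 lay below numbers 5 to 8 on every array. How many of all probe sets were split this way was not counted. For numbers 1 to 4, Gucy1b1 averaged 11.44 with PF-04447943 and 11.08 with vehicle in Tg2576 mice, Gucy1a2 averaged 9.67 and 9.33, and Nos1 averaged 9.84 and 9.31. For numbers 5 to 8 the averages lay closer, at 11.41 with PF-04447943 and 11.33 with vehicle for Gucy1b1, 9.71 and 9.64 for Gucy1a2, and 9.65 and 9.73 for Nos1. These sets of numbers were chosen after the split of the vehicle arrays was seen. A wider difference for numbers 1 to 4 therefore follows largely from that split. Whether the drug differences depended on the replicate number was not tested. With these sets of numbers as a block, the differences over both genotypes still did not pass (limma adjusted p of 0.0903 for Gucy1b1, 0.0891 for Gucy1a2 and 0.204 for Nos1).

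For the remaining genes in hippocampus the difference between PF-04447943 and vehicle over both genotypes was 0.12 for Gucy1a1, with a 95% interval of -0.10 to 0.35, and 0.09 for Prkg1, with an interval of -0.03 to 0.20. It was 0.10 for Npr3 (-0.16 to 0.35), -0.01 for Npr2 (-0.16 to 0.14) and, without the filter, -0.03 for Npr1 (-0.19 to 0.14). Prkg2 had the widest interval, -0.30 to 0.53 around 0.11. Several of these values moved with single arrays. Without hippocampal Tg2576 PF-04447943 replicate 1, the array that stood apart, the difference was 0.02 for Prkg2, 0.08 for Gucy1a1 and 0.16 for Npr3, and over all fits that left out 1 hippocampal array it ran from 0.02 to 0.19 for Prkg2 and from 0.05 to 0.16 for Npr3. Each of the 95% intervals includes 0 but also reaches a rise of 0.14 or more, so the missing calls do not show that the levels were alike. For Gucy1a1 and Prkg1 the intervals do not reach a fall as large as the estimated rise.

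One faint probe set behaved differently. Nos1 1458626_at, with a mean level of 4.50 far below the filter, averaged 4.38 ± 0.13 in Tg2576 hippocampus with PF-04447943 and 4.63 ± 0.21 with vehicle, and 4.33 ± 0.20 in wild-type hippocampus with PF-04447943 and 4.58 ± 0.11 with vehicle (SD, n = 8 each). In the fit without the filter it was lower with the drug by -0.25 ± 0.06 (limma adjusted p = 0.0211), and it was the 1 of 21 member probe sets to pass, where 3.7% of all probe sets passed. The difference was -0.19 with quantile normalization (limma adjusted p = 0.0986) and -0.28 with each array's signal range as a covariate (limma adjusted p = 0.180), so the call was lost in both while the direction was the same. The other 3 Nos1 probe sets gave 0.17, 0.19 and 0.06 in the same comparison, and the faint one was nearly uncorrelated with them over the 32 hippocampal arrays (Pearson's r of 0.07, 0.03 and 0.27, as a description). It was named here after its values were seen.

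In prefrontal cortex 0 of 15 member probe sets passed for PF-04447943 against vehicle over both genotypes, in Tg2576 mice or in wild-type mice. The background of calls in limma was 0% in all 3 comparisons. At an unadjusted p under 0.05 there were 0, 2 and 0, against 2.26%, 2.93% and 2.43% of all probe sets tested. The differences over both genotypes ran from -0.22 (Nos1 1438483_at) to 0.22 (Npr3). The 2 in Tg2576 mice were Npr2 and Gucy1b1. Gucy1b1 was at 12.02 to 12.21 with a median of 12.10 with PF-04447943, against 11.83 to 12.11 with a median of 11.999 with vehicle. Its log2 difference there was 0.12 ± 0.04 (unadjusted p = 0.0102, limma adjusted p = 1.0). The second Gucy1b1 probe set, 1420871_at, averaged 11.31 ± 0.14 with PF-04447943 and 11.31 ± 0.14 with vehicle in these mice (SD, n = 8 each), with a 95% interval of the difference from -0.15 to 0.16.
In hippocampus the within-genotype comparisons also gave 0 of 15 calls. The background of calls was 0% in Tg2576 mice and 0.0037% in wild-type mice. An unadjusted p under 0.05 was reached by 4 members in Tg2576 mice and 0 in wild-type mice, against 10.7% and 15% of all probe sets tested. Tested directly, the drug effect in hippocampus minus that in prefrontal cortex gave 0 of 15 calls in limma (background 0.0296%). Here 2 members had an unadjusted p under 0.05, against 9.09% of all probe sets tested. The drug by genotype term gave 0 of 15 in hippocampus and 0 of 15 in prefrontal cortex, with a background of 0% in both. For this term 0 members had an unadjusted p under 0.05 in either region, against 3.43% and 3.06% of all probe sets tested.

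Tg2576 mice were compared with wild-type mice to see whether the amyloid precursor protein transgene was accompanied by changes in these genes. In hippocampus 0 of 15 member probe sets passed over both treatments (limma, background 0.0962%). There 0 had an unadjusted p under 0.05, against 7.42% of all probe sets tested. Under PF-04447943 and under vehicle 0 of 15 passed too, with backgrounds of 0% and 0.0111%. Each had 0 members at an unadjusted p under 0.05, against 4.69% and 6.11% of all probe sets tested. In prefrontal cortex 0 of 15 passed over both treatments, with a background of 0.0259%. Only 1, Nos1 1438483_at, had an unadjusted p under 0.05, against 11.3% of all probe sets tested. Under PF-04447943 and under vehicle the count was again 0 of 15, with a background of 0%. An unadjusted p under 0.05 was reached by 1 each (Gucy1b1 under PF-04447943 and Gucy1a1 1420534_at under vehicle). The shares of all probe sets tested were 3.39% and 10.8%. The transgene effect in hippocampus minus that in prefrontal cortex gave 0 of 15 calls, with a background of 0%. Again 0 had an unadjusted p under 0.05, against 6.09% of all probe sets tested.

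Nos1 1438483_at in prefrontal cortex differed by 0.25 ± 0.12 between Tg2576 and wild-type mice over both treatments (unadjusted p = 0.0409, limma adjusted p = 0.428), while the brightest Nos1 probe set gave 0.11 ± 0.10. Npr3 in prefrontal cortex had the largest transgene difference among the brightest probe sets, 0.27 ± 0.15 (limma adjusted p = 0.479). Its levels ranged from 7.02 to 8.20 with a median of 7.78 in Tg2576 mice given PF-04447943, against 6.71 to 7.74 with a median of 7.49 in wild-type mice given PF-04447943. With vehicle they ranged from 6.48 to 8.20 with a median of 7.56 in Tg2576 mice, against 6.62 to 7.60 with a median of 7.21 in wild-type mice. Genotypes overlapped under both treatments.
Npr1, below the filter, averaged 4.27 ± 0.30 in hippocampus of Tg2576 mice on vehicle and 4.58 ± 0.18 in wild-type hippocampus on vehicle (n = 8 each, SD). Prefrontal averages were 4.17 ± 0.14 in Tg2576 mice and 4.39 ± 0.15 in wild-type mice. The differences, -0.30 ± 0.12 and -0.22 ± 0.08, had unadjusted p-values of 0.0131 and 0.00904 and did not pass (limma adjusted p of 0.885 and 0.457 without the filter). With PF-04447943 Npr1 averaged 4.46 ± 0.25 in Tg2576 and 4.33 ± 0.21 in wild-type hippocampus. In prefrontal cortex the averages were 4.20 ± 0.19 and 4.19 ± 0.16, so Tg2576 mice were not lower with the drug in either region.

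**Figure D3:**
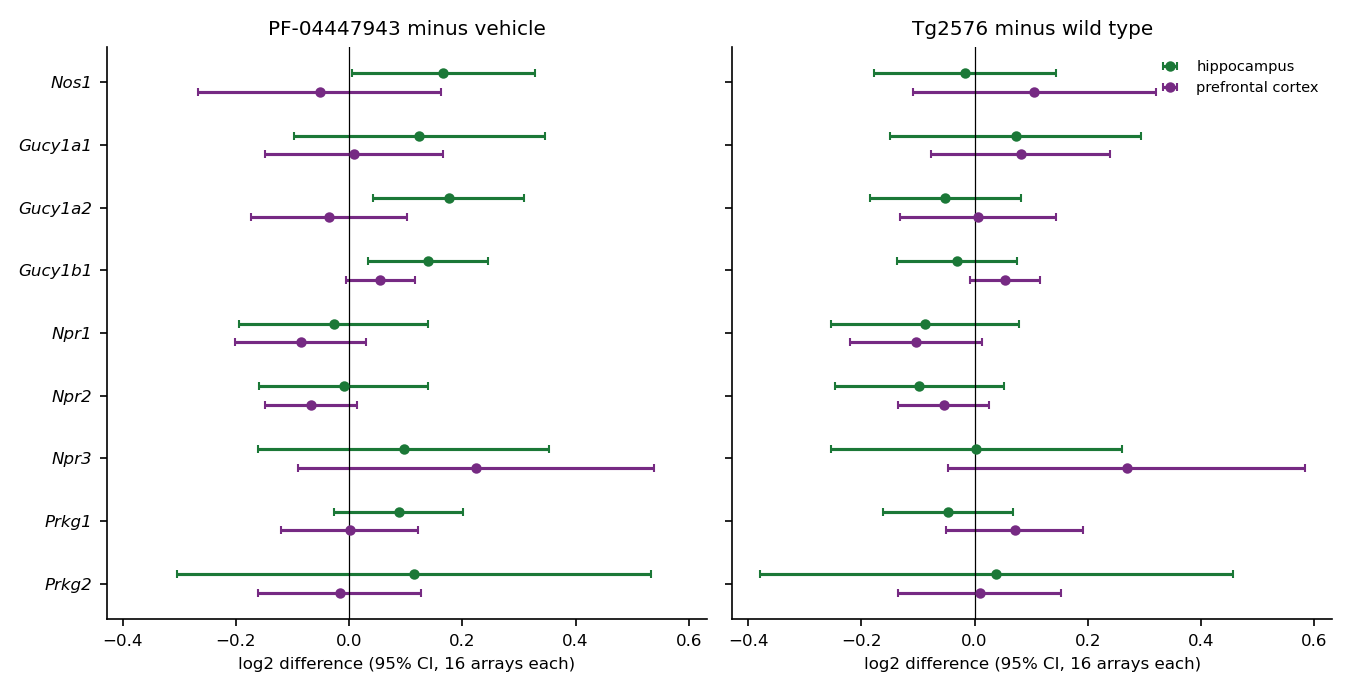
Log2 difference of the brightest probe set of each gene (rows) for PF-04447943 minus vehicle (left panel) and Tg2576 minus wild type (right panel), in hippocampus (green) and prefrontal cortex (purple); points are limma estimates and bars 95% confidence intervals, 16 arrays on each side. No difference passed an adjusted p of 0.05, and the interval of Prkg2 in hippocampus is the widest, from -0.30 to 0.53 for the drug.

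The genes also differed in how much they varied between mice of a group. Prkg2 in hippocampus spanned 2.42 log2 units, a 5.34-fold range of intensity, with a within-group SD of 0.61, higher than 98.7% of the probe sets tested and 3.0 times its SD in prefrontal cortex. Its second probe set spanned 3.17 log2 units, and both probe sets moved together over the 32 hippocampal arrays (r = 0.96 after group means were subtracted). Hippocampal levels in the 8 Tg2576 mice given PF-04447943 ranged from 5.78 to 8.20 with a median of 6.84, against 6.03 to 7.17 with a median of 6.63 in those given vehicle. In wild-type mice they ranged from 6.32 to 7.51 with a median of 6.60 with PF-04447943, against 6.06 to 7.62 with a median of 6.58 with vehicle. High and low arrays thus occurred in every group.

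Levels of markers of the neighbouring tissue moved with this spread. After group means were subtracted, hippocampal Prkg2 correlated with the mean of 8 cortical layer markers (Pearson's r = 0.86, Spearman's rho = 0.82) and inversely with 6 pyramidal markers (r = -0.79, rho = -0.82). Gucy1a1 did so in the same way, at r = 0.86 and rho = 0.85 with cortical layer markers and r = -0.70 and rho = -0.70 with pyramidal markers. Prkg1 ran the other way, at r = -0.71 and rho = -0.74 with cortical layer markers. Each of these 5 relations had a permutation p of 5e-05 or less within groups, of which 1e-05 is the smallest that 100000 permutations can give, and Benjamini-Hochberg adjusted values of 0.0009 or less over the 108 relations computed. Without the 2 arrays farthest from the median of the markers, r was 0.81 for Prkg2, 0.83 for Gucy1a1 and -0.70 for Prkg1 with cortical layer markers. Within replicate numbers 1 to 4 and 5 to 8, with 16 arrays each, r was 0.89 and 0.79 for Prkg2, 0.94 and 0.81 for Gucy1a1, and -0.71 and -0.84 for Prkg1. The same genes also moved with 7 thalamic markers, at r = 0.66 for Prkg2, 0.56 for Gucy1a1 and -0.63 for Prkg1 (adjusted permutation p = 0.0015, 0.0141 and 0.00144). With 8 dentate granule cell markers r was -0.69 for Prkg2 and -0.63 for Gucy1a1 (adjusted permutation p = 0.0013 and 0.00351), and 0.29 for Prkg1 (0.263). Whether the amount of adjoining cortex or of other tissue in the dissected hippocampus had a part in these levels was not tested.

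In hippocampal Tg2576 PF-04447943 replicate 1, with a cortical layer mean of 9.0, Prkg2 stood at 8.20, Gucy1a1 at 9.93 and Nos1 at 10.46, the highest hippocampal values of all 3. Replicate 8 of that group had the next highest cortical layer mean, 8.63, and the next highest Prkg2 level, 7.77. The lowest cortical layer mean, 7.47 in replicate 4 of that group, went with a Prkg2 level of 6.05. With the cortical layer mean as a covariate, the hippocampal drug difference of Prkg2 was -0.03, against 0.11 without it, and neither passed.
Hippocampal Nos1 ran inversely to pyramidal markers (r = -0.77, rho = -0.64, permutation p = 8e-05 and 0.0003, adjusted 0.00123 and 0.00216), and r was -0.66 without the 2 farthest arrays. All tested members of the cortical layer list except Fezf2 (0.40) and Tshz2 (0.49) were lower in hippocampus, from -1.40 for Rorb to -2.48 for Rspo1.

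In prefrontal cortex both striatal and cortical layer markers moved with several of the genes. Nos1 and Gucy1a1 went with the mean of 8 striatal markers, at r = 0.63 and rho = 0.73 for Nos1 and r = 0.69 and rho = 0.48 for Gucy1a1 (permutation p between 1e-05 and 0.00807, adjusted p between 0.000216 and 0.0301). Without the 2 farthest arrays r was 0.54 for each. Within replicate numbers 1 to 4 and 5 to 8, r was 0.29 and 0.87 for Nos1 and 0.54 and 0.72 for Gucy1a1, so the relation of Nos1 was weak in the first set. Prefrontal wild-type vehicle replicate 5, the array with the highest striatal mean (11.03), had a Gucy1a1 level of 11.55, the highest on any array, and a Nos1 level of 9.43. Npr3 went with cortical layer markers (r = 0.70, rho = 0.61, permutation p = 1e-05 and 0.00032, adjusted 0.00027 and 0.00216), with r at 0.39 and 0.80 within the same sets. Nos1 ran inversely to cortical layer markers (r = -0.65, rho = -0.67, permutation p = 0.00016 and 0.00017, adjusted 0.00144 and 0.00141), as did Gucy1a1 (r = -0.60, rho = -0.45, adjusted permutation p = 0.00351 and 0.0318). Without the 2 farthest arrays r was -0.56 for Nos1 and -0.50 for Gucy1a1, and within the sets of numbers it was -0.49 and -0.79 for Nos1 and -0.14 and -0.74 for Gucy1a1. Prkg2 (r = 0.52, rho = 0.54, adjusted permutation p = 0.0191 and 0.0154) and Gucy1a2 (r = 0.53, rho = 0.51, adjusted permutation p = 0.0191 and 0.0236) went with cortical layer markers. Without the 2 farthest arrays r was 0.56 for Prkg2 and 0.37 for Gucy1a2. Within the sets of numbers it was 0.41 and 0.55 for Prkg2 and 0.35 and 0.77 for Gucy1a2. Of 8 striatal markers tested, 7 were lower in hippocampus, such as Tac1 (-1.78) and Drd1 (-1.28), and Six3 did not pass. Other lists moved with prefrontal levels too, such as thalamic markers with Prkg1 (r = 0.68, adjusted permutation p = 0.0013), with r at 0.35 and 0.67 within the sets of numbers. Markers of mural cells of vessels ran inversely to Npr2 (r = -0.62, adjusted permutation p = 0.00375), with r at -0.72 and -0.06 within the sets of numbers. The part of striatal, deeper or other tissue in the prefrontal levels was not tested.

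**Figure D4:**
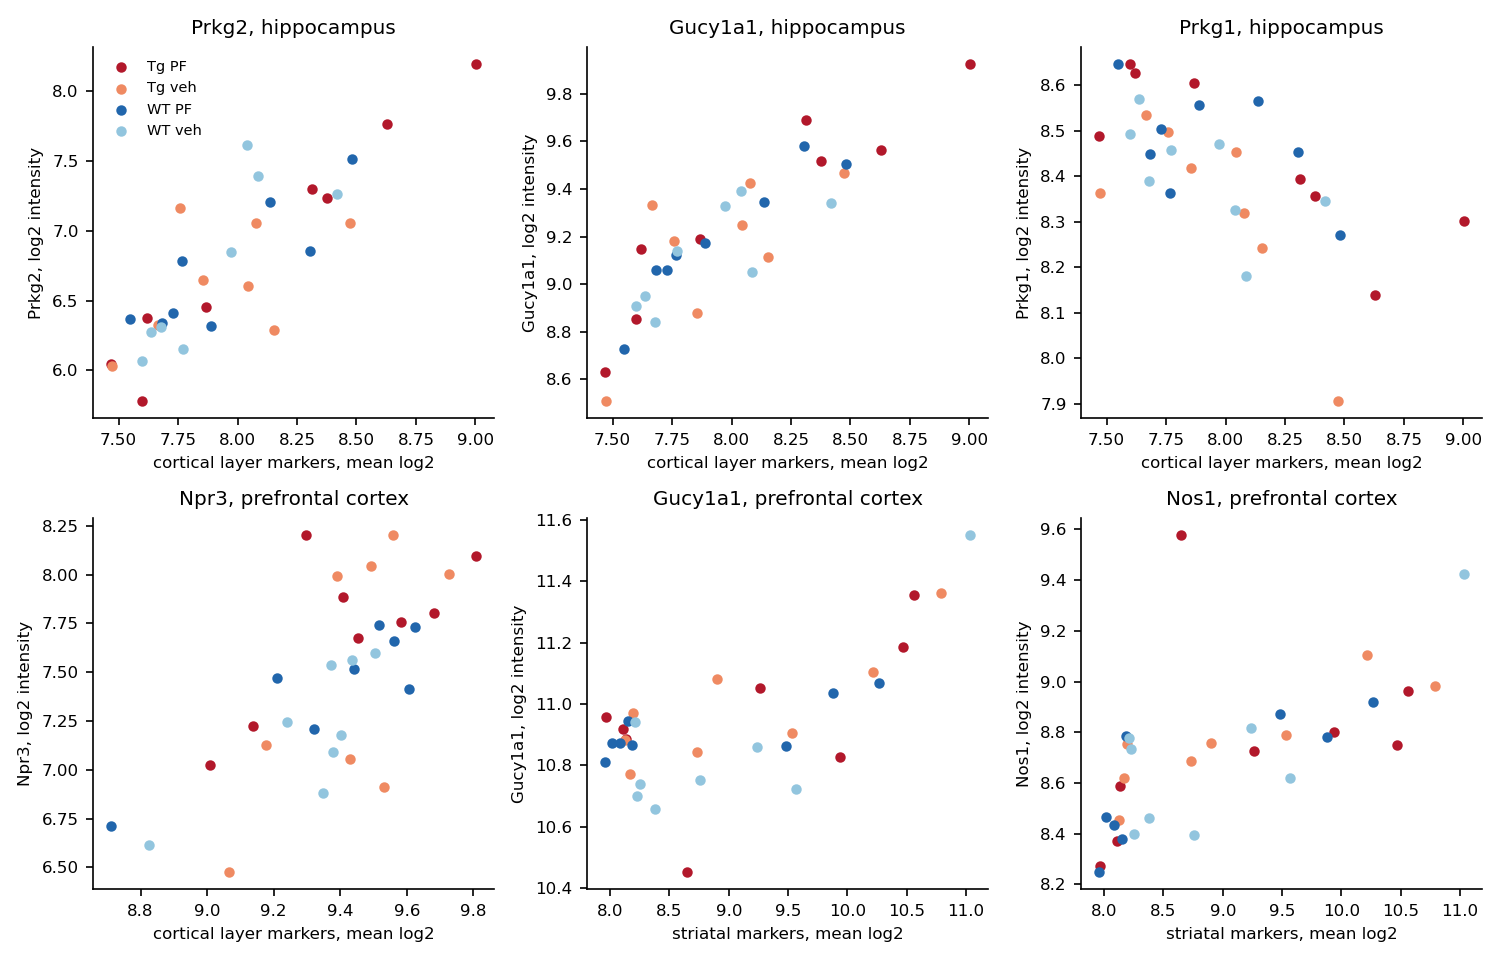
Log2 intensity of a gene (y axes) against the mean log2 intensity of a marker list (x axes) on 32 arrays per panel; upper row Prkg2, Gucy1a1 and Prkg1 in hippocampus against cortical layer markers, lower row Npr3 against cortical layer markers and Gucy1a1 and Nos1 against striatal markers in prefrontal cortex. Points are mice, coloured by group as labelled. Prkg2 and Gucy1a1 increase with cortical layer markers in hippocampus, Prkg1 decreases, and 1 Tg2576 PF-04447943 array lies at 9.0 on the marker axis.

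Npr3 in prefrontal cortex had a within-group SD of 0.46, higher than 95.1% of the probe sets tested, and part of the spread followed the replicate number. In Tg2576 mice given vehicle, replicates 1 to 4 lay between 7.99 and 8.20 and replicates 5 to 8 between 6.48 and 7.13. The other groups overlapped between these sets, at means of 7.78 and 7.64 in Tg2576 mice given PF-04447943, 7.59 and 7.28 in wild-type mice given PF-04447943, and 7.47 and 6.96 in wild-type mice given vehicle, numbers 1 to 4 first. The labels do not say what a replicate number stands for. Such a split without overlap was present in 10 of the 72 combinations of a gene and a group. The share of all probe sets split this way was not counted, so the splits cannot be called particular to these genes. Among the 10 were Nos1, Gucy1a2 and Gucy1b1 in hippocampus of Tg2576 mice given vehicle, and Prkg1 in prefrontal cortex. There Prkg1 in Tg2576 mice given vehicle ranged from 8.30 to 8.43 for numbers 1 to 4 and from 7.90 to 8.17 for numbers 5 to 8. Whether date, dissection or another factor lay behind the numbers was not tested.

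The members' relations to each other also differed by region, described here over 32 arrays that share their tissue samples. In hippocampus Gucy1a1 and Prkg2 moved together (r = 0.79), Gucy1a2 and Gucy1b1 moved together (r = 0.75), and Prkg1 and Prkg2 moved oppositely (r = -0.62). In prefrontal cortex Nos1 and Gucy1a2 moved oppositely (r = -0.69), as did Gucy1a1 and Npr3 (r = -0.66). Probe sets of the same gene agreed well for Gucy1a1 (0.72 to 0.83 in hippocampus and 0.92 to 0.95 in prefrontal cortex), whereas the 2 of Gucy1b1 did not move together in hippocampus (r = -0.11) and did so in prefrontal cortex (r = 0.60).

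Among 12961 genes compared, the ones most like hippocampal Prkg2 over the 32 arrays were Dpp10 (r = 0.95), Camk2n2 (0.95) and Camk2d (0.94). Those most like hippocampal Gucy1a1 were Fut9 (0.92), Stmn1 (0.91) and Osbpl1a (0.91), and those most like hippocampal Nos1 were Fem1b (0.88), Negr1 (0.87) and Apaf1 (0.87). The closest to Gucy1a2 was Chm (0.85), to Gucy1b1 Epc2 (0.85), to Npr1 Pmfbp1 (0.69), to Npr2 Gm13306 (0.78), to Npr3 Ggact (0.87) and to Prkg1 Lrrc20 (0.87). In prefrontal cortex, among 12925 genes, the closest to Gucy1a1 were Arpp21, Lmo7 and Arhgap6 (0.87 each), to Nos1 Ncam1 (0.88) and Adcyap1r1 (0.88), and to Npr3 Mrm1 and Ccpg1 (0.89 each). Gucy1a2 was closest to Megf9 (0.85), Gucy1b1 to Robo1 (0.72), Prkg1 to Tm9sf4 (0.86) and Prkg2 to Gm12371 (0.77). Npr1 and Npr2 were closest to Foxb2 (0.63) and 4932431P20Rik (0.77). These are descriptions of likeness over the arrays, and whether tissue composition or another factor lay behind it was not tested.

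The rest of the pathway was described from a list of 67 other genes of cyclic GMP signalling, 57 of them on the array and 36 tested. In the regional comparison 9 were higher and 15 lower in hippocampus in limma, 24 of 36, beside the background of 68.3%. The 6 widest differences towards hippocampus were Gria1, an AMPA receptor subunit phosphorylated by Prkg2 (log2 difference 1.35), Trpc6, a cation channel (0.48), Septin3 (0.43) and Vasp (0.39), both kinase substrates, Mylk, the myosin light chain kinase (0.31), and Cngb1, a cyclic nucleotide-gated channel subunit (0.24). The 6 widest in the other direction were Rgs4 (-1.44) and Rgs2 (-0.58), regulators of G protein signalling, the phosphodiesterases Pde10a (-0.79) and Pde1b (-0.60), Ddah1, which degrades an inhibitor of nitric oxide synthases (-0.33), and Nppc, the precursor of the Npr2 ligand (-0.24).
By role, the substrates of the kinases split into 5 higher and 6 lower of 12 tested, the phosphodiesterases into 1 higher and 5 lower of 10, the ligands and synthase partners into 1 and 3 of 8, and the channels and exporters into 2 and 2 of 5. Pde5a is counted among both the substrates and the phosphodiesterases. Neither of the 2 other tested cyclase genes passed. Pde9a, the enzyme blocked by the drug, was lower in hippocampus by 0.15 on the log2 scale (limma adjusted p = 0.0260). Endothelial Nos3 was at -0.17 (limma adjusted p = 0.000508).
In the drug and transgene comparisons 0 pathway genes passed in limma in either region, of 36 tested in hippocampus and 35 in prefrontal cortex. At an unadjusted p under 0.05 there were 5 for the drug and 6 for the transgene in hippocampus, against 20.9% and 7.42% of all probe sets tested, and 0 and 4 in prefrontal cortex, against 2.26% and 11.3%.

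**Figure D5:**
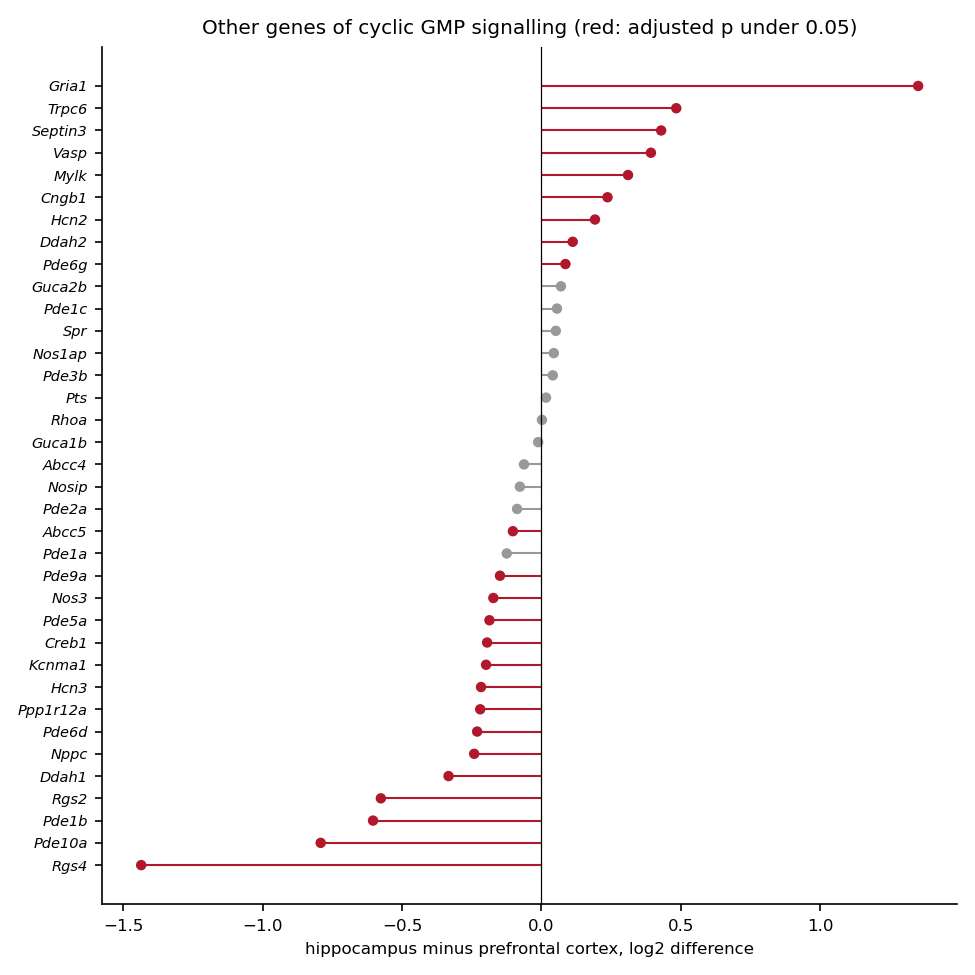
Log2 difference between hippocampus and prefrontal cortex (x axis) of the 36 tested genes of the wider cyclic GMP pathway (rows, brightest probe set each); red marks an adjusted p under 0.05. Gria1 lies farthest right at 1.35 and Rgs4 farthest left at -1.44.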

How the data were processed

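Total RNA from 64 tissue samples was hybridised to Affymetrix mouse 430 2.0 arrays, 1 array per mouse and region. The authors deposited 1 linear intensity per probe set and array, computed with RMA, as the submitters' processing notes name it; its version is not given in the sources used here, nor is whether both regions were normalized together. The intensities (5.87 to 34089) were turned into log2 values for all tests, and the number of arrays, not a count, limits their precision. Gene names came from the platform annotation: 34957 probe sets had 1 symbol, 920 several and 9160 none, and 64 control probe sets were left out. Probe sets under the 40th percentile of mean log2 level (5.94 in hippocampus, 5.91 in prefrontal cortex, 5.93 over both) were left out of the main fits. Each region, and both together, was fitted with limma 3.58.1 in R 4.3.3 with group means, empirical Bayes and Benjamini-Hochberg adjustment over 27022 probe sets, with a threshold of 0.05. The code was tested on simulated data. The brightest probe set of each gene leads, up to 3 like genes are named per gene and region, and the 6 largest pathway changes each way are named. Members and lists were chosen with earlier results of these data known. Relations to markers used Python 3.11.15 and numpy 2.4.6 with 100000 permutations within groups. Replicate numbers were checked as pairs: 21 of 32 same-numbered hippocampal and prefrontal arrays had a correlation of deviations over 0.1 (-0.26 to 0.66), as had 35 of 48 same-numbered pairs of prefrontal arrays from different groups (-0.64 to 0.67, median 0.35) and 26 of 48 of hippocampal arrays (-0.35 to 0.51, median 0.13). Since not every pair passed 0.1 and the labels do not say what a number marks, numbers were not treated as pairs in the main fits. This does not show that same-numbered arrays were independent, and prefrontal arrays shared more by number. The SEs and p-values of the main fits take all arrays as independent, and the permutations take the arrays of a group as exchangeable. A block on the replicate number was fitted as an alternative.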

Additional observations from a re-analysis of the deposited data

Results flagged for a closer look

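Each of the 9 genes was examined in 8 groups of 8 arrays for an array far from its nearest neighbour (Dixon's test), and 7 of 72 combinations stood out, while chance alone flags about 1 in 20. In prefrontal cortex, wild-type vehicle replicate 5 was highest for both Nos1 (9.43, next 8.82) and Gucy1a1 (11.55, next 10.94), and replicate 3 of that group was highest for Prkg2 (8.53, next 8.24). In hippocampus, Tg2576 PF-04447943 replicate 2 was highest for Npr1 (5.03, next 4.54) and Tg2576 vehicle replicate 3 was lowest for Prkg1 (7.91, next 8.24). Wild-type PF-04447943 replicate 3 was lowest for Npr3 (7.26, next 7.98), and wild-type vehicle replicate 1 was lowest for Gucy1b1 (10.92, next 11.26). The same wild-type vehicle prefrontal array had the highest striatal marker mean, 11.03, and its part in the Nos1 and Gucy1a1 levels was not tested.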

How the results depend on the processing

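The regional count was 15 of 15 tested under array weights, quantile normalization, an RNA quality covariate, a trended and robust prior and the replicate block, 14 with median centring or a signal range covariate, and 14 to 15 with 1 array left out, 12 with the filter at the 60th percentile and 19 of 21 with none; with 1 probe set per gene it was 8 (7 in wild-type vehicle mice, where it was 14 under the replicate block). Apart from Npr2, whose difference was 0.07 with median centring and 0.09 with the signal range covariate (adjusted p = 0.0931 and 0.0774), no regional call was lost. All drug and transgene counts stayed at 0 except for hippocampus without the filter, where PF-04447943 against vehicle gave 1, Nos1 1458626_at. The replicate block and the added settings (numbers 1 to 4 against 5 to 8 as a block, and the cortical layer covariate, both chosen after seeing the data) changed no other call. Drug differences that changed sign, none past the threshold, were in hippocampus Gucy1a1 (-0.041) and Npr3 (-0.10) with the signal range covariate, Npr2 with array weights (0.016) and median centring (0.0054), and Prkg2 with the cortical covariate (-0.031), and in prefrontal cortex Gucy1a1 with RNA quality (-0.014), Gucy1a2 with array weights (0.037) and Prkg1 with array weights (-0.042) and the cortical covariate (-0.0044). Transgene differences that changed sign were in hippocampus Gucy1a1 with the cortical covariate (-0.00096), Nos1 with the signal range (0.0082), Npr3 with median centring (-0.0041) and Prkg2 with array weights (-0.0067) and the cortical covariate (-0.10). In prefrontal cortex they were Gucy1a2 with array weights (-0.029), the cortical covariate (-0.026) and quantile normalization (-0.034), and Prkg2 with the cortical covariate (-0.023), quantile normalization (-0.037) and signal range (-0.028). With 1 array left out, drug ranges that crossed 0 were -0.021 to 0.057 for prefrontal Gucy1a1, -0.041 to 0.022 for hippocampal Npr2, -0.023 to 0.018 for prefrontal Prkg1 and -0.043 to 0.014 for prefrontal Prkg2, and transgene ranges were -0.023 to 0.040 for prefrontal Gucy1a2, -0.069 to 0.0084 for hippocampal Nos1, -0.058 to 0.071 for hippocampal Npr3, -0.055 to 0.12 for hippocampal Prkg2 and -0.017 to 0.040 for prefrontal Prkg2. The causes of these changes were not tested. Dim probe sets, with Npr1 the only one for its gene, limit what the arrays can show.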
